A study of Mus musculus with 8 samples.

Results

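The genes described here are 9 semaphorin and neurotrophin genes tied to the innervation of the hair follicle. They comprise the ligands Sema3c, Sema3d, Sema3e, Sema3f and Bdnf, the neurotrophin receptors Ntrk2 and Ngfr, and the semaphorin co-receptors Nrp1 and Nrp2. They were taken by gene symbol from the 16593 genes named on the array, with all 18 of their probes. Of the 9 genes, 8 had a probe above the detection limit on at least 2 arrays and were tested, and Nrp1 had none. The samples were viable single basal keratinocytes, stained for α6 integrin, from the back skin of adult Gli1-eGFP/+ mice of an outcrossed Swiss Webster stock in telogen, the resting phase of the hair cycle. All groups carried the reporter, in which GFP marks cells that express Gli1, a target of hedgehog signalling. Gli1+ samples were GFP-positive cells with no selection on CD34 (2 arrays). CD34+ samples were GFP-negative cells stained for CD34, a surface marker of the bulge, the stem cell region of the follicle (3 arrays). IFE samples were GFP-negative and CD34-negative cells, which the labels describe as mainly interfollicular epidermis (IFE) with the upper funnel of the follicle, the infundibulum (3 arrays). Each replicate pooled 2 mice and was sorted into all 3 groups, and the RNA of the first Gli1+ sample was not of sufficient quality to be analysed.

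Class 3 semaphorins are secreted guidance cues that steer axons and blood vessels. Most of them bind a neuropilin, which has little signalling of its own, and signal through a plexin held in the same complex, while Sema3E can bind plexin D1 without a neuropilin. Neurotrophins are secreted survival and guidance factors: BDNF binds the tyrosine kinase TrkB, encoded by Ntrk2, and all neurotrophins bind p75, encoded by Ngfr. Sensory endings surround the follicle at the level of the bulge, and in mouse back skin BDNF made by follicle epithelium is known to orient the endings of TrkB-expressing touch neurons. The cells measured here are the epithelial side of that contact. No nerve cells were sorted for.

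Values are background-corrected, quantile-normalised log2 intensities, in which the lowest detected value lay between 5.08 and 5.62 depending on the array, and differences are log2 differences with standard errors from a limma fit of all 8 arrays. A probe counted as detected at a detection p under 0.05. A gene was called when its adjusted p, by Benjamini-Hochberg over the 9545 genes tested, was under 0.05. The arrays detected 11188 and 9925 probes in Gli1+ cells, 12209 to 12601 in CD34+ cells and 11027 to 11680 in IFE cells. The Gli1+ arrays correlated with each other at 0.82 across genes, while arrays within the CD34+ group and within the IFE group correlated at 0.93 to 0.95. Of the Gli1+ pair, replicate 3 was the less similar to the other groups. Its coefficients against CD34+ and IFE arrays ran from 0.82 to 0.84, where those of replicate 2 ran from 0.87 to 0.89. Replicate 3 also had the fewest detected probes of any array (9925). Gli1 itself measured 8.82 and 8.36 in Gli1+ cells, 7.06, 8.42 and 7.35 in CD34+ cells, and 5.07, 5.32 and 5.01 in IFE cells. The Gli1+ and CD34+ groups therefore overlapped in Gli1 although only the Gli1+ cells were GFP-positive. Cd34 lay between 8.18 and 8.86 on the 5 Gli1+ and CD34+ arrays and between 5.44 and 6.31 on the IFE arrays. Itga6, which encodes the α6 integrin of the sort, lay between 8.61 and 9.79 on all 8 arrays.

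CD34+ cells differed from IFE cells in 5 of the 8 measured genes. Sema3e and Bdnf were higher in CD34+ cells, and Sema3d, Sema3f and Ntrk2 were lower. Sema3c, Ngfr and Nrp2 did not pass the test. Over all genes tested, 2.94% were called higher and 1.85% lower in the same comparison. The median size of the log2 difference was 1.81 over the 8 genes and 0.35 over all genes. These genes and the lists below were chosen with earlier results of these data known, so such contrasts may follow in part from the choice. In bulk samples such as these, a smaller number of cells that express a gene and less of its RNA per cell cannot be told apart.

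Gli1+ cells differed from IFE cells in 1 of the 8 genes, Sema3e, which was higher. The share of all genes called in that comparison was 1.3% higher and 0.859% lower. Gli1+ cells differed from CD34+ cells in 1 gene as well, Sema3d, which was higher, against 0.576% of all genes called higher and 0.849% lower. The median size of the log2 difference was 1.02 over the 8 genes and 0.42 over all genes for Gli1+ against IFE cells, and 0.68 and 0.43 for Gli1+ against CD34+ cells. Both comparisons rest on 2 Gli1+ arrays, and the comparisons share samples, so that their values are not independent of each other.

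**Figure D1:**
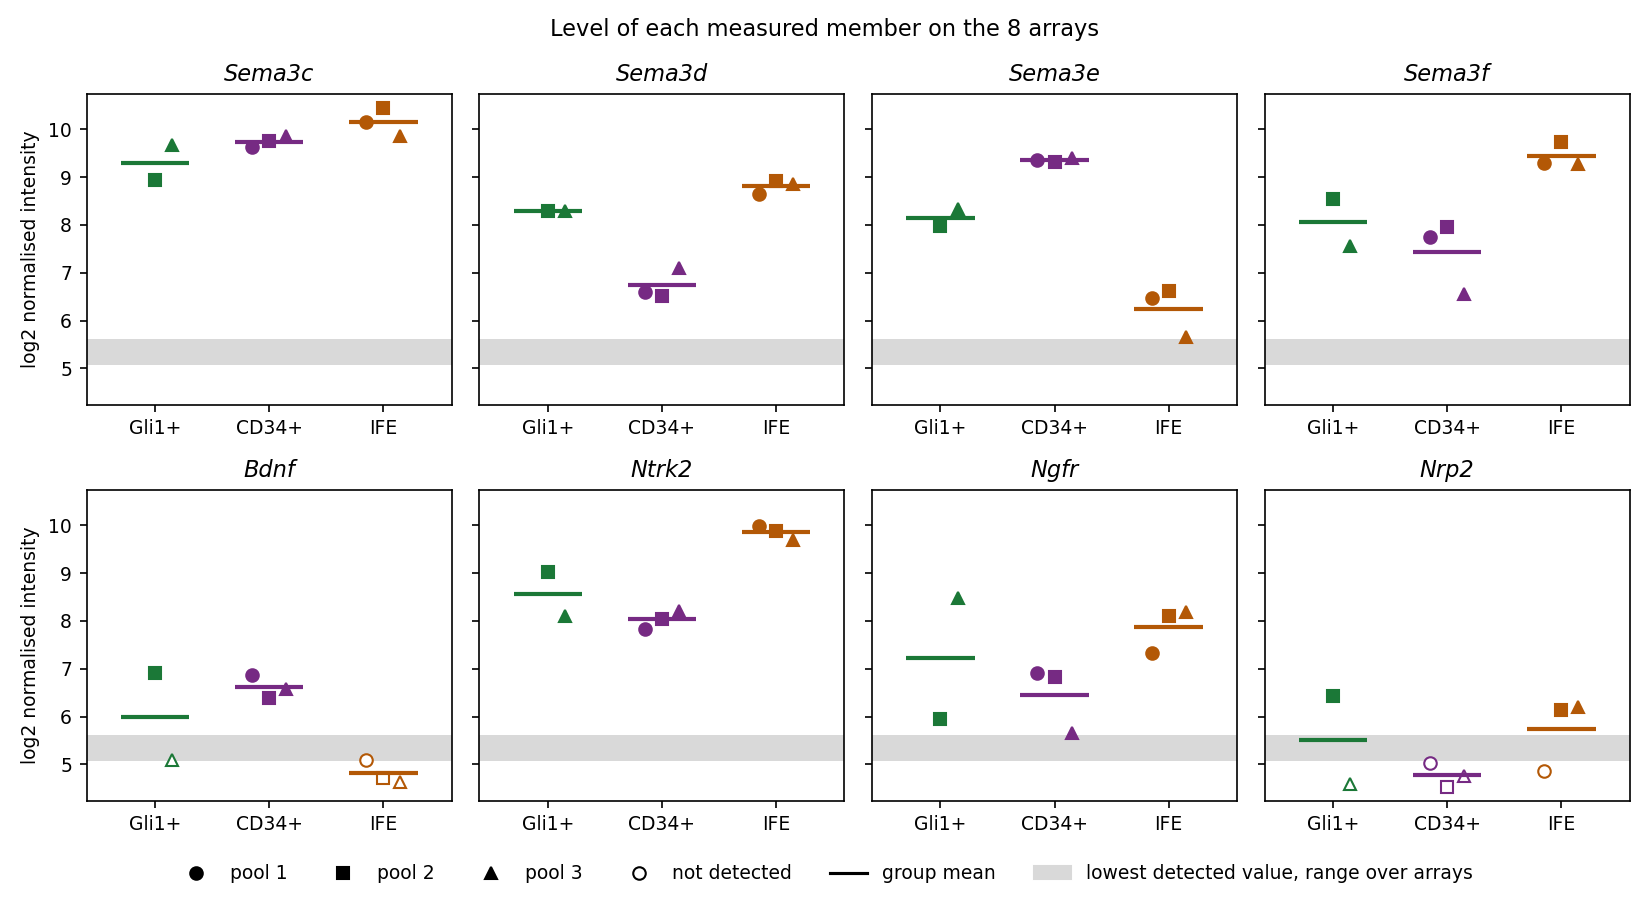
Log2 normalised intensity of the 8 measured genes on each array, in Gli1+ (2 arrays), CD34+ (3 arrays) and IFE cells (3 arrays). Marker shape gives the pool of mice, open markers were not detected, horizontal lines are group means, and the grey band is the range over arrays of the lowest detected value. Sema3e is highest in CD34+ cells (9.32 to 9.40), Sema3d is lowest there (6.51 to 7.10), and the Gli1+ pair is widely spread in Ngfr (5.96 and 8.47).

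Sema3e encodes the semaphorin that can act on plexin D1 directly. It measured 7.98 and 8.33 in Gli1+ cells, 9.36, 9.32 and 9.40 in CD34+ cells, and 6.47, 6.61 and 5.65 in IFE cells. The 3 groups did not overlap, in the order CD34+, Gli1+, IFE, and IFE replicate 3 was the lowest array. CD34+ cells exceeded IFE cells by 3.12 ± 0.31 (8.67-fold, SE, adjusted p = 0.000631), and the differences within the 3 pools of mice were 2.89, 2.71 and 3.75. Of all genes tested, 0.44% differed more in that comparison. Gli1+ cells exceeded IFE cells by 1.90 ± 0.35 (3.74-fold, limma adjusted p = 0.0290). With the pool of mice as a replicate block, that call was lost (adjusted p = 0.0809). It was also lost without any 1 of 7 arrays, with adjusted p from 0.0518 without CD34+ replicate 3 to 0.0901 without IFE replicate 3. The exception was Gli1+ replicate 2. Gli1+ and CD34+ cells, neighbours in the order, differed by -1.21 ± 0.35, which did not pass (limma adjusted p = 0.114).

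Sema3d, another secreted class 3 semaphorin, ran the other way. It measured 8.29 and 8.30 in Gli1+ cells, 6.60, 6.51 and 7.10 in CD34+ cells, and 8.65, 8.91 and 8.85 in IFE cells. Every CD34+ array lay below every array of the other groups. CD34+ cells were lower than IFE cells by a log2 difference of -2.07 ± 0.27 (4.19-fold, limma adjusted p = 0.00249), with -2.05, -2.40 and -1.75 within the pools. Gli1+ cells exceeded CD34+ cells by 1.56 ± 0.30 (2.94-fold, limma adjusted p = 0.0447), with 1.78 and 1.20 within the 2 pools that had both samples. That call was lost with the replicate block (adjusted p = 0.114), and likewise without any 1 array other than Gli1+ replicate 2, with adjusted p from 0.0639 without Gli1+ replicate 3 to 0.132 without CD34+ replicate 2. Gli1+ and IFE cells, neighbours at the upper end, differed by -0.51 ± 0.30 (95% interval -1.19 to 0.17, limma adjusted p = 0.428).

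Sema3d and Sema3e lie on the same strand of chromosome 5, with 4 protein-coding genes between them in RefSeq on GRCm38.p6. Sema3a, which was detected on too few arrays to be tested, is the next protein-coding gene to Sema3d. Sema3c lies 15 protein-coding genes from Sema3e. The promoter windows of Sema3d and Sema3e are shown because these genes differed in opposite directions between CD34+ and IFE cells. Each runs 5′ to 3′ from 250 bases before to 50 bases after the RefSeq transcription start, with the bases after the start in capitals. The Sema3d window is chr5:12382916-12383215 (plus strand, 49.7% G and C), and the Sema3e window is chr5:14025026-14025325 (plus strand, 50.7% G and C).
Sema3d: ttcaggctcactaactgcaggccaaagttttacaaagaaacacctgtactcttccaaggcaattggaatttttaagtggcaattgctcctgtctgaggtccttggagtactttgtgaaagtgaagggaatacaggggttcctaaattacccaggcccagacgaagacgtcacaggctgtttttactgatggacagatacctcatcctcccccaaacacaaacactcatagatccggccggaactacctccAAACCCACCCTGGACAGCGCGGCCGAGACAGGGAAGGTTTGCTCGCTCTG
Sema3e: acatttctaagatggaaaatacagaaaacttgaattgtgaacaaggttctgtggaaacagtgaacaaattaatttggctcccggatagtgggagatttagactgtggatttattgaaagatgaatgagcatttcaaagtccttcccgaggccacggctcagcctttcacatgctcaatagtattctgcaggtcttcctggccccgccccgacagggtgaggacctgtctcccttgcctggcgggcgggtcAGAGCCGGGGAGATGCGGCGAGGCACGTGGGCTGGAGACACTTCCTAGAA
The windows were searched on both strands for the letters of GLI (GACCACCCA), LIM homeobox (TAATTA), TCF/LEF (CTTTGAT), AP-1 (TGACTCA) and CRE (TGACGTCA) motifs. Neither window held any of them. Of the 14 windows of 8 of the 9 genes, with none used for Sema3f, 1 window, that of Nrp2, held 1 of these motifs (TCF/LEF). Over all 32851 RefSeq windows of this length, the share with a match was 0.253% for GLI, 5.291% for LIM homeobox, 3.729% for TCF/LEF, 5.202% for AP-1 and 1.79% for CRE.

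Sema3f encodes a secreted semaphorin that binds neuropilin 2 in preference to neuropilin 1. On the brightest of its 3 probes it measured 8.55 and 7.55 in Gli1+ cells, 7.76, 7.96 and 6.56 in CD34+ cells, and 9.30, 9.74 and 9.28 in IFE cells. IFE cells were above both other groups on every array, and the Gli1+ and CD34+ groups overlapped. CD34+ cells were lower than IFE cells by a log2 difference of -2.01 ± 0.42 (4.04-fold, limma adjusted p = 0.0256), with -1.54, -1.78 and -2.72 within the pools. That call was lost without CD34+ replicate 1 or 3 (adjusted p = 0.0559 and 0.0744) and without IFE replicate 1, 2 or 3 (adjusted p = 0.0876, 0.109 and 0.0938). Gli1+ cells differed from IFE cells by -1.39 ± 0.47 (limma adjusted p = 0.156), and without Gli1+ replicate 2 by -1.89 (adjusted p = 0.0418). That value, and every other one here with a Gli1+ array left out, rests on a lone Gli1+ array that is assumed to vary like the other groups.

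The other probes of Sema3f gave the same direction. With every kept probe tested on its own, 4.21% of 13361 probes were called in CD34+ against IFE cells, 1.59% in Gli1+ against IFE cells and 0.891% in Gli1+ against CD34+ cells. In that fit, the second Sema3f probe differed by -2.27 ± 0.40 between CD34+ and IFE cells (adjusted p = 0.0115), and the third, dimmest one by -2.05 ± 0.57 (adjusted p = 0.0866). On the third probe the signal was below the detection limit on Gli1+ replicate 3 and CD34+ replicate 1.

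Sema3c encodes a secreted semaphorin that binds both neuropilins. It was detected on all 8 arrays, at 8.95 and 9.66 in Gli1+ cells, 9.62, 9.75 and 9.86 in CD34+ cells, and 10.16, 10.45 and 9.86 in IFE cells. IFE cells were above both other groups, by 0.0016 over the nearest CD34+ array, and no comparison passed. CD34+ cells differed from IFE cells by -0.41 ± 0.30 (95% interval -1.08 to 0.25, limma adjusted p = 0.558). Gli1+ cells differed from IFE cells by -0.85 ± 0.33 (95% interval -1.60 to -0.11, limma adjusted p = 0.215), and from CD34+ cells by -0.44 ± 0.33 (95% interval -1.18 to 0.30).

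Bdnf, the ligand of TrkB, was detected on all 3 CD34+ arrays and on no IFE array. On its brightest probe it measured 6.91 and 5.09 in Gli1+ cells, 6.87, 6.40 and 6.58 in CD34+ cells, and 5.09, 4.71 and 4.63 in IFE cells. The second of the Gli1+ values was not detected, so the Gli1+ pair spanned the levels of both other groups. On the group means, Bdnf was at least 2.53-fold higher in CD34+ than in IFE cells, taking the lowest detected value of each IFE array as the limit. The probe entered the test through its 3 CD34+ arrays and 1 Gli1+ array. The measured log2 difference was 1.80 ± 0.43 (95% interval 0.84 to 2.77, limma adjusted p = 0.0441), with 1.78, 1.68 and 1.95 within the pools. The replicate block ended the call (adjusted p = 0.0609), as did leaving out each of the 6 CD34+ or IFE arrays in turn, at adjusted p from 0.106 without IFE replicate 1 to 0.168 without IFE replicate 3. The call was also lost with no background correction (0.76, adjusted p = 0.0598), an offset of 50 (1.08, 0.0622), median centring (0.0539), the deposited log2 values (0.84, 0.0878) and no detection filter (0.102). Gli1+ cells differed from IFE cells by 1.19 ± 0.48 (limma adjusted p = 0.232), and by 2.14 with Gli1+ replicate 2 as the lone Gli1+ array (adjusted p = 0.0168).

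A second Bdnf probe gave values of 5.54 and 5.70 in Gli1+ cells, 6.86, 6.57 and 6.17 in CD34+ cells, and 4.77, 5.00 and 4.46 in IFE cells. On this probe the 3 groups did not overlap, and both Gli1+ arrays were detected. With every probe tested on its own, it was at least 2.40-fold higher on the means in CD34+ than in IFE cells. The measured log2 difference was 1.79 ± 0.30 (95% interval 1.13 to 2.45, limma adjusted p = 0.00893). The Gli1+ cells lay between the other groups, and neither of their differences on this probe passed, at 0.87 ± 0.33 from IFE cells (limma adjusted p = 0.216) and -0.92 ± 0.33 from CD34+ cells (limma adjusted p = 0.209). The remaining Bdnf probe was detected on 1 of 8 arrays and was not tested. The platform ties the probes to more than 1 Bdnf transcript, and which transcripts each probe binds was not resolved.

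Ntrk2, the receptor of BDNF, was lower in CD34+ cells, where its ligand was higher. On its brightest probe it measured 9.03 and 8.10 in Gli1+ cells, 7.83, 8.05 and 8.20 in CD34+ cells, and 9.99, 9.88 and 9.68 in IFE cells. All IFE arrays lay above all other arrays, and the Gli1+ and CD34+ groups overlapped. CD34+ cells were lower than IFE cells by a log2 difference of -1.82 ± 0.31 (3.53-fold, limma adjusted p = 0.00924), with -2.15, -1.83 and -1.48 within the pools. Without IFE replicate 1 the adjusted p was 0.0534, and no other array ended the call. Gli1+ cells differed from IFE cells by -1.29 ± 0.34 (limma adjusted p = 0.0915), and by -1.76 with Gli1+ replicate 3 as the lone Gli1+ array (adjusted p = 0.0128).

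The platform ties a second measured Ntrk2 probe to another transcript of the gene. It measured 5.54 and 5.68 in Gli1+ cells, 5.93, 4.90 and 5.85 in CD34+ cells, and 7.59, 6.71 and 6.75 in IFE cells. IFE cells were again above every other array, and CD34+ replicate 2 was not detected. The log2 difference between CD34+ and IFE cells was -1.45 ± 0.37 in the fit of every probe (limma adjusted p = 0.0610), and that between Gli1+ and IFE cells was -1.41 ± 0.42 (limma adjusted p = 0.122). The remaining Ntrk2 probe was detected on 0 of 8 arrays. Whether the probes separate the kinase form of TrkB from the forms that lack the kinase was not resolved.

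Ngfr, the p75 receptor of all neurotrophins, was detected on all 8 arrays and its Gli1+ arrays lay further apart than those of the genes above (SD 1.78). It measured 5.96 and 8.47 in Gli1+ cells, 6.90, 6.82 and 5.65 in CD34+ cells, and 7.34, 8.11 and 8.19 in IFE cells. The 2 Gli1+ arrays lay at opposite ends, 1 below all but 1 of the other arrays and 1 above all of them. Every CD34+ array was below every IFE array, with differences of -0.44, -1.28 and -2.54 within the pools, but the difference of -1.42 ± 0.61 did not pass (limma adjusted p = 0.269). It passed only without Gli1+ replicate 2 (adjusted p = 0.0480), among the arrays left out in turn. Against CD34+ cells, Gli1+ cells then rested on replicate 3 alone and differed by 2.00 (adjusted p = 0.0384).

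Mbp, a myelin gene, lay lowest in CD34+ cells and apart on the Gli1+ arrays as Ngfr did, at 6.06 and 7.50 in Gli1+ cells, 5.75, 4.83 and 5.80 in CD34+ cells, and 6.95, 7.14 and 6.84 in IFE cells. Of the 6 Schwann cell markers on the array, 2 were detected on no array. Pmp22, another gene of this list, did not follow Ngfr, at 6.44 and 4.99 in Gli1+ cells, 7.78, 6.57 and 7.11 in CD34+ cells, and 7.71, 7.26 and 6.41 in IFE cells. The summed intensity of the 6 markers was 174 to 225 in Gli1+ cells, 151 to 290 in CD34+ cells and 212 to 345 in IFE cells, so that the groups overlapped. The part of Schwann cell RNA in the Ngfr values was not tested.

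The neuropilins were detected on few arrays. Nrp1, the co-receptor of several class 3 semaphorins and of VEGF, had 2 probes, 1 detected on CD34+ replicate 1 alone and the other on no array, with log2 values between 4.53 and 5.29 on the 8 arrays. Nrp2 was measured by 1 of its 3 probes, at 6.43 and 4.59 in Gli1+ cells, 5.03, 4.54 and 4.77 in CD34+ cells, and 4.87, 6.13 and 6.20 in IFE cells. It was detected on 1 Gli1+ array, no CD34+ array and 2 IFE arrays, and the groups overlapped in every comparison. The difference between CD34+ and IFE cells was -0.95 ± 0.51 (95% interval -2.08 to 0.17, limma adjusted p = 0.387), and that between Gli1+ and IFE cells was -0.22 ± 0.57 (95% interval -1.48 to 1.04, limma adjusted p = 0.888). A level below the detection limit on an array does not show that the transcript was absent.

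**Figure D2:**
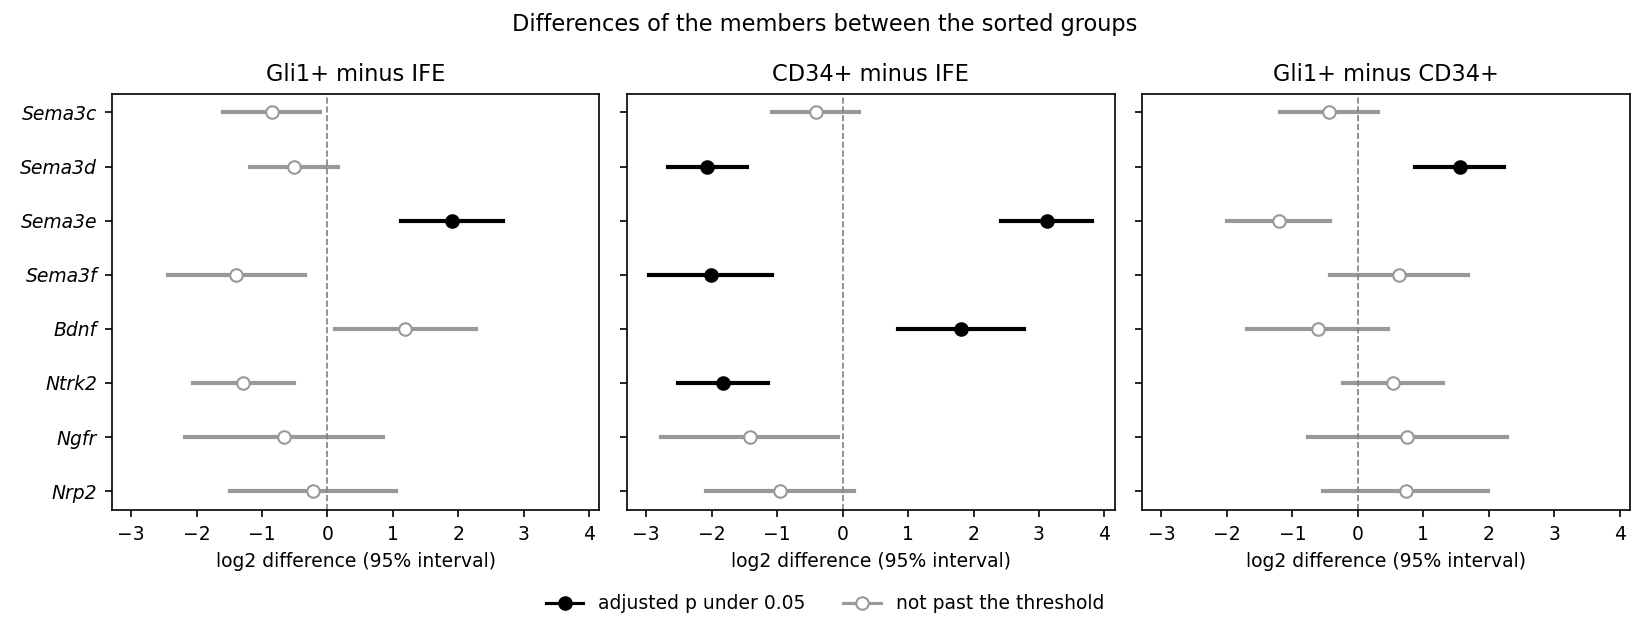
Log2 difference of each measured gene in the 3 comparisons, first group minus second, with its 95% interval. Filled points passed an adjusted p of 0.05 over all genes: Sema3e alone in Gli1+ minus IFE cells (1.90), 5 genes in CD34+ minus IFE cells (from -2.07 for Sema3d to 3.12 for Sema3e), and Sema3d alone in Gli1+ minus CD34+ cells (1.56).

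**Figure D3:**
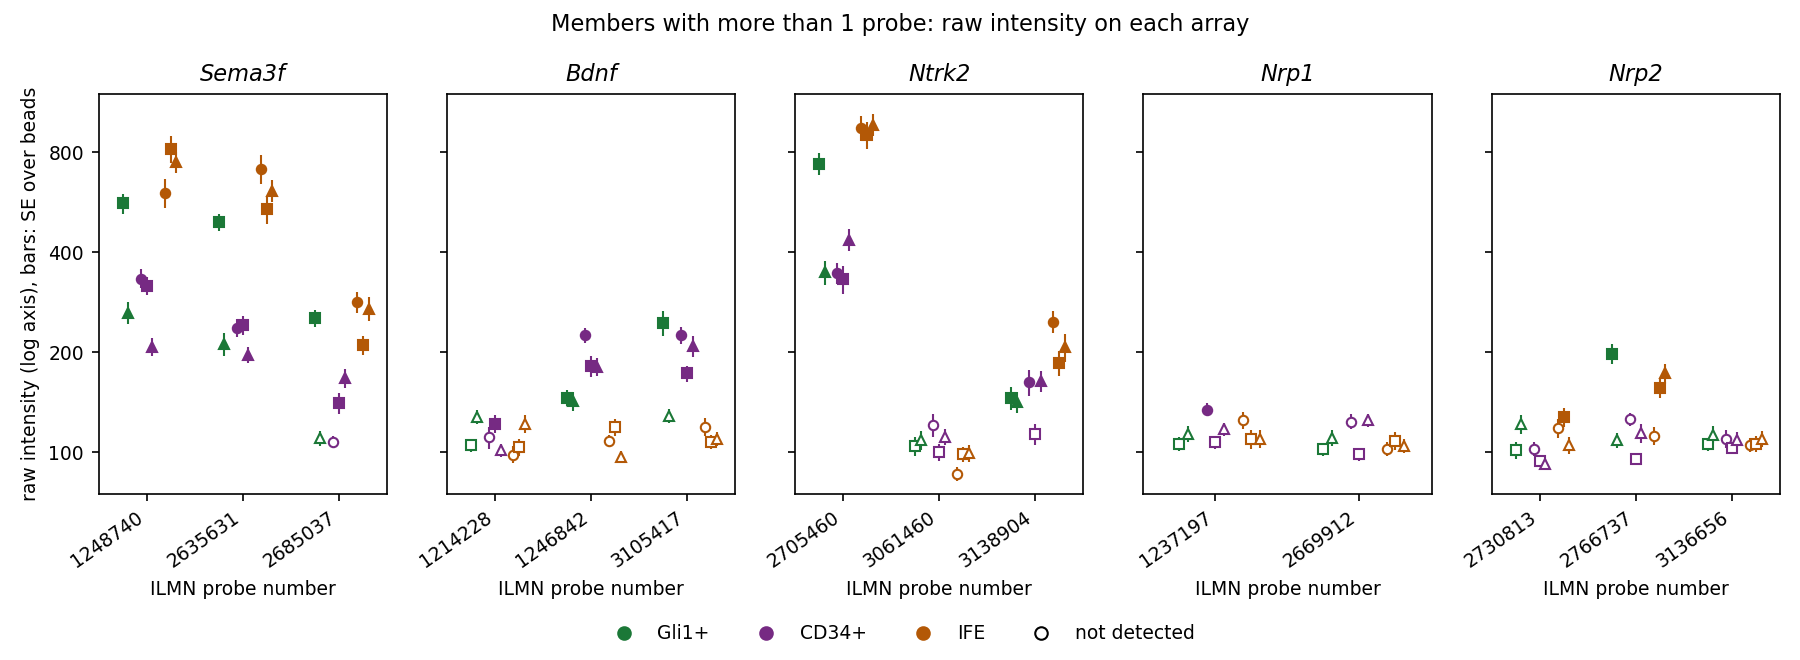
Raw intensity, on a log axis, of every probe of the 5 genes with more than 1 probe, with error bars for the standard error over beads; colour gives the group, marker shape the pool (circle 1, square 2, triangle 3), and open markers were not detected. IFE cells are brightest on all 3 Sema3f probes and on both measured Ntrk2 probes, with 1 exception. On the third Sema3f probe, Gli1+ replicate 2 (252) is above IFE replicate 2 (210). CD34+ cells are above IFE cells on both measured Bdnf probes, and the Nrp1 probes lie between 98.4 and 134 throughout.

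The rest of the semaphorin and neurotrophin machinery was read from 11 lists of 126 related genes, of which 110 had a probe and 56 were measured. In CD34+ against IFE cells, 5 of the 56 were higher, 3 were lower and 48 did not pass, against 2.94% higher and 1.85% lower over all genes tested. In Gli1+ against IFE cells 0 were higher and 2 were lower, against 1.3% and 0.859%, and in Gli1+ against CD34+ cells 0 of the 56 passed by limma. At an unadjusted p under 0.05, 15 were higher and 5 lower in CD34+ against IFE cells, where 8.42% of all genes were higher and 8.48% lower. In Gli1+ against IFE cells 7 were higher and 4 lower, against 7.97% and 9.66% of all genes. In Gli1+ against CD34+ cells 3 were higher and 10 lower, against 7.69% and 9.76%. Sorcs3, Gfra2, Mical2 and Nrcam were among the 15 higher in CD34+ against IFE cells and the 10 lower in Gli1+ against CD34+ cells. They were detected on the CD34+ arrays alone, so they entered the test only through the group in which they were high.

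Among the semaphorin receptors, 4 of 9 plexins were measured and 1 was called. Plxna2, a plexin that pairs with neuropilins, measured 7.90 and 8.60 in Gli1+ cells, 9.26, 8.98 and 9.11 in CD34+ cells, and 6.93, 6.23 and 7.19 in IFE cells. The 3 groups did not overlap and stood in the same order as for Sema3e. CD34+ cells exceeded IFE cells by 2.33 ± 0.33 (limma adjusted p = 0.00366), with 2.33, 2.75 and 1.92 within the pools. Plxnd1, which encodes the receptor of Sema3E, was below the detection filter. Of the other class 3 semaphorins, Sema3a and Sema3g were below the filter too, and Sema3b was detected on 2 arrays and did not pass. Of the 7 measured semaphorins of other classes, 0 passed in any comparison by limma, and 2, 2 and 0 had an unadjusted p under 0.05 in Gli1+ against IFE, CD34+ against IFE and Gli1+ against CD34+ cells.

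Neuropilins also bind VEGF, and 3 of the 8 genes of that list were measured. Vegfa, the main angiogenic factor, measured 6.69 and 7.56 in Gli1+ cells, 5.84, 5.79 and 5.76 in CD34+ cells, and 8.11, 7.71 and 6.87 in IFE cells. CD34+ cells lay below all other arrays and differed from IFE cells by -1.77 ± 0.37 (limma adjusted p = 0.0256). The call was lost with the replicate block (adjusted p = 0.0518), and likewise without any 1 of CD34+ replicates 1, 2 and 3 and IFE replicates 1 and 2 (adjusted p from 0.0802 to 0.107). Vegfd, a ligand of the lymphatic VEGF receptor, was detected on no Gli1+ array, on 2 of 3 CD34+ arrays and on all IFE arrays. It was at least 3.74-fold lower in Gli1+ than in IFE cells (limma adjusted p = 0.0363, 0.0705 with the replicate block) and lower by a log2 difference of -1.89 ± 0.36 in CD34+ than in IFE cells (limma adjusted p = 0.0163). Without any 1 IFE array or CD34+ replicate 3, neither Vegfd call held (adjusted p from 0.0517 to 0.127). Without CD34+ replicate 1 the second was lost (adjusted p = 0.0536).

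Of the adaptors of p75 and the Trk receptors, 7 of 14 were measured and 2 were higher in CD34+ than in IFE cells. Maged1, a p75-binding adaptor, differed by 1.54 ± 0.28 (limma adjusted p = 0.0135), and Frs3, a Trk and FGF receptor docking protein, by 1.50 ± 0.35 (limma adjusted p = 0.0389, 0.0644 with the replicate block). Maged1 missed the threshold without CD34+ replicate 1 or 2 or IFE replicate 1 or 2 (adjusted p from 0.0511 to 0.0630), and Frs3 without any 1 CD34+ or IFE array (0.0721 to 0.159). Of the list of other neurotrophins and their receptors, 4 genes were measured, and 0 passed in any comparison by limma, with 0, 2 and 1 at an unadjusted p under 0.05 in Gli1+ against IFE, CD34+ against IFE and Gli1+ against CD34+ cells. Ntrk3, the receptor of neurotrophin 3, measured 7.38 and 5.77 in Gli1+ cells, 5.87, 6.31 and 5.79 in CD34+ cells, and 7.12, 6.82 and 7.23 in IFE cells. Its difference between CD34+ and IFE cells was -1.07 ± 0.40 (limma adjusted p = 0.198).

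The remaining lists held few calls. Gfra2, a GDNF family co-receptor, was at least 1.75-fold higher in CD34+ than in IFE cells (limma adjusted p = 0.0416, 0.0604 with the replicate block). It was detected on the 3 CD34+ arrays alone and so entered the test only through the group in which it was high. Robo1, a Slit receptor, was lower by a log2 difference of -1.84 ± 0.37 (limma adjusted p = 0.0206), and Rras, a GTPase that plexins switch off, was higher by 1.38 ± 0.30 (limma adjusted p = 0.0312). Without any 1 CD34+ or IFE array, none of these 3 calls held (adjusted p from 0.0511 to 0.146). In Gli1+ against IFE cells, Gsk3b, a kinase downstream of semaphorins and of many other signals, was lower by a log2 difference of -1.43 ± 0.31 (limma adjusted p = 0.0480). That call was lost with the replicate block (adjusted p = 0.123), and likewise without any 1 array but Gli1+ replicate 2 (0.0753 to 0.151). Of the 12 measured ephrins and Eph receptors, 0 passed in any comparison by limma, and 3, 3 and 2 had an unadjusted p under 0.05 in Gli1+ against IFE, CD34+ against IFE and Gli1+ against CD34+ cells. The 1 measured proprotein convertase, Furin, had neither.

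**Figure D4:**
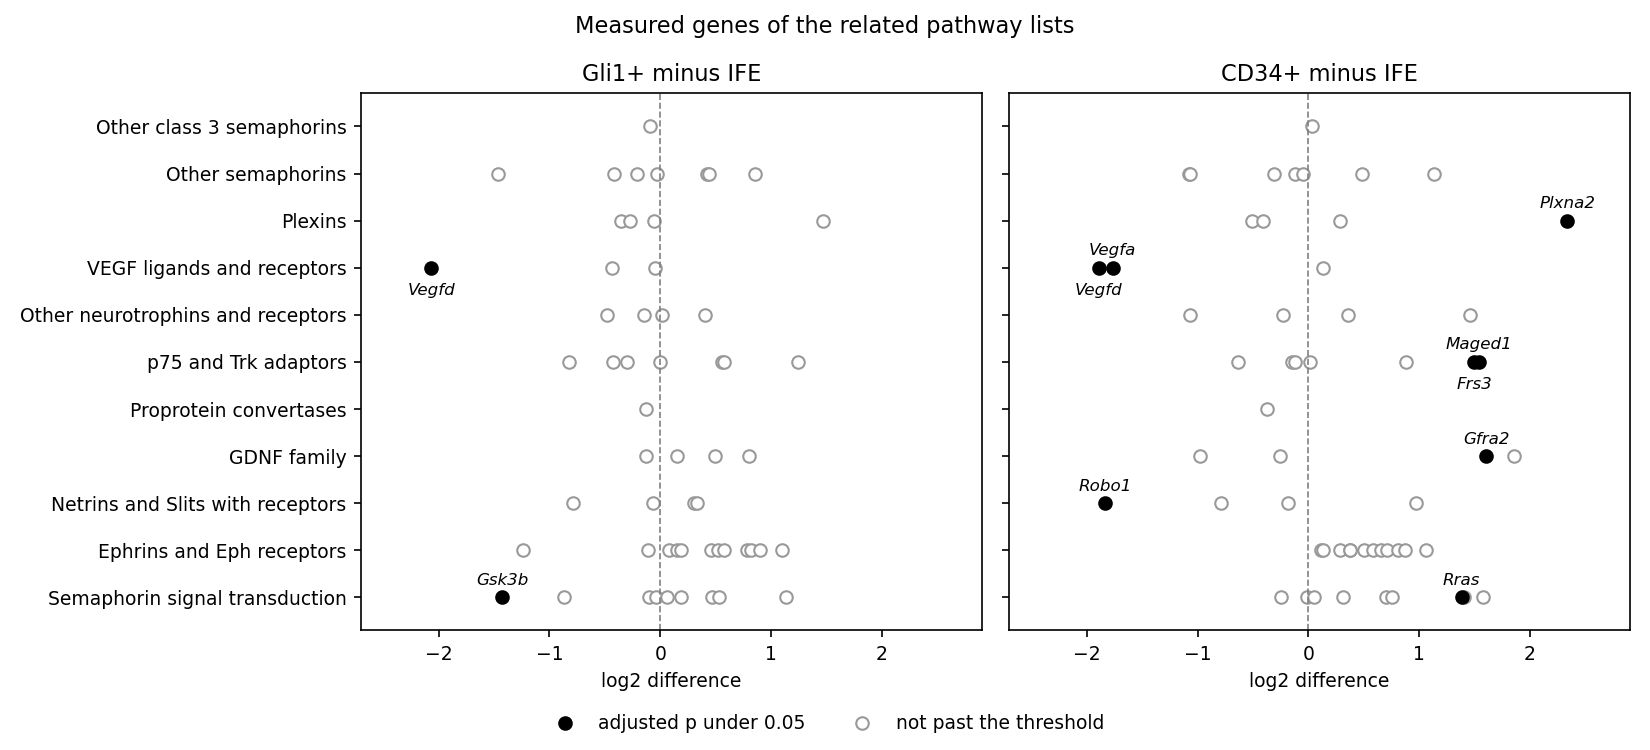
Log2 differences of the 56 measured genes of the 11 related lists, Gli1+ minus IFE cells on the left and CD34+ minus IFE cells on the right, each point 1 gene. Filled, named points passed an adjusted p of 0.05: Vegfd (-2.07) and Gsk3b (-1.43) on the left, and 8 genes on the right, from Vegfd (-1.89) to Plxna2 (2.33).

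Genes whose arrays followed those of the called genes were sought by the root mean square difference between log2 values, each centred on its own mean over the 8 arrays. The pattern of Sema3e was most like those of Pdzrn3 (0.26) and Lhx2 (0.32), a bulge transcription factor. Bdnf was closest to Enox1 (0.21) and Hoxd4 (0.27), Sema3d to Kpna2 (0.17) and Maob (0.18), and Sema3f to Slc4a8 (0.24) and Zfp982 (0.34). Ntrk2 was closest to Pkib (0.18) and Il1r2 (0.18), the decoy receptor of interleukin 1. These measures stand beside standard deviations over the arrays of 1.48 for Sema3e, 0.99 for Bdnf, 1.00 for Sema3d, 1.08 for Sema3f and 0.91 for Ntrk2.

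Markers of other cells were read in the same samples. Of 8 neuron and axon markers, 7 were detected on no array and the eighth, Uchl1, lay between 4.61 and 5.48. Of 6 Merkel cell markers, 5 were detected on no array, Atoh1, Krt20 and Sox2 among them, and Piezo2 lay between 5.29 and 6.29. The summed intensity of the melanocyte markers was 193 to 349 in Gli1+ cells, 295 to 403 in CD34+ cells and 74.9 to 109 in IFE cells. Both Gli1+ and CD34+ cells lay above IFE cells, as for Sema3e, but their ranges overlapped, unlike those of Sema3e. Of the 6 on the array, Dct, Tyr and Tyrp1 were detected on no array, and Mitf measured 8.14 and 6.90 in Gli1+ cells, 8.07, 8.53 and 7.95 in CD34+ cells, and 5.05, 5.06 and 5.27 in IFE cells. Pmel and Mlana did not follow Mitf: Pmel measured 5.56 and 5.48 in Gli1+ cells, 5.78, 4.79 and 5.28 in CD34+ cells, and 5.56, 5.09 and 5.81 in IFE cells, and Mlana lay between 4.55 and 5.38 throughout. The fibroblast markers summed to 766 to 1414 in Gli1+ cells, 1165 to 1610 in CD34+ cells and 1236 to 1510 in IFE cells, with 3 of 8 detected on no array. Among them Col1a2 measured 7.23 and 4.65 in Gli1+ cells, 8.01, 7.75 and 7.53 in CD34+ cells, and 4.52, 5.28 and 4.99 in IFE cells. It differed by 2.83 ± 0.56 between CD34+ and IFE cells (limma adjusted p = 0.0191). Its second Gli1+ array, replicate 3, was low as for Bdnf, but also as for Nrp2 (6.43 and 4.59), Ntrk3 (7.38 and 5.77) and Pmp22 (6.44 and 4.99). Ngfr (5.96 and 8.47) and Mbp (6.06 and 7.50) were higher on that array. Thy1, the other measured fibroblast marker and also on the T cell list, did not follow Col1a2. Its values were 9.21 and 10.13 in Gli1+ cells, 10.38, 9.92 and 9.89 in CD34+ cells, and 10.52, 10.37 and 10.21 in IFE cells. Thy1 was above Col1a2 on every array. Col1a1, Col3a1, Pdgfra, Lum, Dcn and Vim were below the detection filter. The Langerhans cell and macrophage markers summed to 505 to 637 in Gli1+ cells, 283 to 361 in CD34+ cells and 135 to 294 in IFE cells. The mast cell markers summed to 170 to 211 in Gli1+ cells, 73.7 to 98.1 in CD34+ cells and 131 to 166 in IFE cells. The sum was lowest in the group where Sema3d was lowest, but highest in Gli1+ cells, whereas Sema3d was highest in IFE cells. Of these markers, Cpa3 and Mcpt4 were detected on no array. The suprabasal keratinocyte markers summed to 10618 to 14906 in Gli1+ cells, 5002 to 7099 in CD34+ cells and 6258 to 10088 in IFE cells. The sums of the T cell, endothelial, and pericyte and smooth muscle markers overlapped between the groups, and no measured marker of these lists was called. Some single markers lay apart in some comparisons. Cspg4 measured 7.92 and 8.96 in Gli1+ cells, 8.70 to 9.58 in CD34+ cells and 7.65 to 8.08 in IFE cells. Cd3e measured 6.90 and 7.39, 5.01 to 5.60, and 5.31 to 6.68 in these groups. Cd3g measured 4.64 and 4.78, 4.76 to 5.17, and 5.51 to 6.22. Acta2 and Cd3d overlapped between the groups. The bulge markers, all 6 detected, summed to 6500 to 7445 in Gli1+ cells, 9014 to 12450 in CD34+ cells and 3211 to 3987 in IFE cells. The part of these cells in the values of the semaphorin and neurotrophin genes was not tested.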

How the data were processed

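Gene expression was measured on Illumina bead arrays, 1 per sorted sample. Per the file headers, the deposited matrix holds for each probe a raw bead-averaged intensity with its standard error, the count of beads behind it and a detection p-value. The deposited table of log2 values equals the log2 of the raw intensity, so the authors had not normalised it. GenomeStudio 2010.3 is named per the submitters' processing notes. A genome build is not given in the sources used here.

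Background correction and quantile normalisation used neqc (offset 16, controls inferred from detection p-values) in limma 3.58.1 under R 4.3.3. A probe was kept if 2 or more arrays detected it (p under 0.05), and the probe with the highest mean stood for each gene. Of 25697 probes, 23978 had 1 gene symbol and 1719 had none, and 13361 of those with a gene were kept. All 8 arrays entered 1 fit (lmFit and eBayes), tested two-sided. Summed marker intensities are normalised intensities less the offset, added over the markers on the array. The number of arrays limits the precision. Samples with the same replicate number share a pool of mice, per the series' design text. The correlations of their deviations from the group means were -0.031 to 0.091. P-values of the main fit rest on the spread between arrays within the groups, each array from a pool of 2 mice, drawn in part towards that of all genes. That fit treats the arrays as independent, and only the replicate block takes account of the pools shared between groups.

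A fold is given as "at least" where no array of the dimmer group detected the probe. The limit is each such array's lowest detected value, or the probe's own value where higher. Motifs were searched as exact letters on both strands. Genes named are the members, Gli1, Cd34 and Itga6, up to 4 called genes of each pathway list per comparison, and the 2 genes with the nearest pattern to each called member. Ntrk3, Furin, Sema3a, Sema3b, Sema3g, Plxnd1, Sorcs3, Mical2, Nrcam and the cell type markers were named after their values were seen. The members and lists were chosen with earlier results of these data known. The fit was tested on simulated data. Alternatives changed the background correction, the normalisation, the filter, the choice of probe, the samples in the fit, the weights and the replicate block.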

Additional observations from a re-analysis of the deposited data

How the results depend on the processing

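Over 21 alternatives, each changing 1 choice, the calls of Sema3d and Sema3e between CD34+ and IFE cells held in all, with adjusted p up to 0.0210 and 0.00556. Ntrk2 held in 20, Sema3f in 15 and Bdnf in 9. Sema3e in Gli1+ against IFE cells held in 11, and Sema3d in Gli1+ against CD34+ cells in 8. Among the called genes of the lists, in CD34+ against IFE cells, Plxna2 held in 21, Maged1 in 17 and Vegfd in 16. Robo1 and Rras held in 15 each, Vegfa in 13, Frs3 in 11 and Gfra2 in 10 of 20. In Gli1+ against IFE cells, Vegfd held in 11 and Gsk3b in 6. The cause of the changes below was not tested. The number of genes called among the 8 measured was 1 in Gli1+ against IFE cells, and it was 2 with no background correction, 0 with the replicate block, with only the 2 groups compared and with array weights, and 0 to 3 with 1 array left out. In CD34+ against IFE cells it was 5, 3 with no detection filter, 4 (Bdnf lost) with no background correction, an offset of 50, median centring, the deposited log2 values and the replicate block, and 2 to 6 with 1 array left out. In Gli1+ against CD34+ cells it was 1, 2 with no background correction, 0 with median centring, the deposited log2 values, every probe on its own, the replicate block, only the 2 groups compared and array weights, and 0 to 2 with 1 array left out. Over all genes, Gli1+ against IFE cells gave 206 calls, 67 with the replicate block, 6 with only the 2 groups, 3 with array weights and 39 to 1200 with 1 array left out. CD34+ against IFE cells gave 458 calls, 820 with only the 2 groups, 887 with array weights and 189 to 843 with 1 array left out. Gli1+ against CD34+ cells gave 136 calls, 209 with no background correction, 1 each with the replicate block, only the 2 groups and array weights, and 1 to 1195 with 1 array left out. The highest counts with 1 array left out came without Gli1+ replicate 2. That fit left only replicate 3, the Gli1+ array less similar to the other groups. The higher and lower calls moved with the scaling. In Gli1+ against IFE cells they were 124 and 82, with 174 and 36 under median centring, 171 and 49 under cyclic loess, and 158 and 12 on the deposited log2 values. In CD34+ against IFE cells they were 281 and 177, with 310 and 91 under median centring, which moved the median of all genes to 0.13, and 306 and 83 on the deposited values. In Gli1+ against CD34+ cells they were 55 and 81, with 106 and 82 under cyclic loess and 54 and 50 on the deposited values.

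Some uncalled differences changed sign. Nrp2 in Gli1+ against IFE cells was 0.049 under cyclic loess, 0.02 on the deposited values, and -1.12 (without Gli1+ replicate 2) to 0.71 (without Gli1+ replicate 3) with 1 array left out, with 0.01 without IFE replicate 3. Nrp2 in Gli1+ against CD34+ cells was -0.19 without Gli1+ replicate 2 and 1.69 without Gli1+ replicate 3. Without Gli1+ replicate 2, Ngfr was 0.60 in Gli1+ against IFE cells and 2.00 in Gli1+ against CD34+ cells, and without Gli1+ replicate 3 it was -1.90 and -0.49. Bdnf in Gli1+ against CD34+ cells was 0.30 without Gli1+ replicate 3 and -0.82 without Gli1+ replicate 2. With no background correction, Ntrk2 passed in Gli1+ against IFE cells (limma adjusted p = 0.0352) and Sema3e in Gli1+ against CD34+ cells (0.0286). The replicate block ended the calls given with it above and changed no other call among the 8 measured members, Gli1, Cd34 and the called genes of the pathway lists. Nrp1, Nrp2 and Bdnf lay near background, which limits the size of any difference that could be seen in them.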
